A study of Mus musculus with 66 samples.

Results

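The comparison set EN against ENR organoids, cultures of mouse small intestinal epithelium grown in a gel of basement membrane extract, by ATAC-seq, in which the Tn5 transposase cuts open chromatin and the reads report how accessible each region is. All 8 libraries held Lgr5-GFP-DTR/+ organoids, in which 1 allele of the stem cell gene Lgr5 carries a green fluorescent protein and diphtheria toxin receptor cassette. ENR organoids (4 libraries) received epidermal growth factor at 50 ng/ml and conditioned media with 10% Noggin and 5% R-Spondin-1, and EN organoids (4 libraries) received the same medium without R-Spondin-1. The table of accessibility listed 94469 regions, the union of the peaks of all cultures and marks of the study, and every region was a member; 51489 of them had a mean normalised read count, here called the score, of at least 5 over the 8 libraries and were tested. These 8 libraries were part of 66 samples, which also held stem cell-enriched CV organoids (ENR medium with 3 µM CHIR99021 and 1 mM valproic acid), histone marks, Hnf4g binding and RNA. Nothing in the labels stated that same-culture libraries came from separate cultures or animals, so the p-values measure the spread between these libraries.

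R-Spondin amplifies Wnt signalling by keeping Frizzled receptors at the cell surface, where the ubiquitin ligases Rnf43 and Znrf3 would otherwise remove them. In the intestinal crypt Wnt signalling maintains the Lgr5 stem cells through the transcription factor Tcf7l2 and its partner beta-catenin, and cells that leave the crypt stop dividing and become absorptive enterocytes or secretory cells. Open chromatin marks promoters and distal regulatory elements, and hepatocyte nuclear factors, Cdx2, Gata4 and related factors bind such elements in enterocytes. In a bulk library fewer cells of a type and less open chromatin per cell cannot be told apart.

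Accessibility fell at many regions of stem cell and Wnt target genes and rose at many regions of genes for brush border enzymes, fat absorption and nutrient uptake. The central 300 bases of 4 regions show the letters counted in the motif results. They are the forward strand of mm9 (NCBIM37), and capitals mark the letters of HNF4 (CAAAGTCCA), DR1 (GGNCAAAG, the middle of a pair of nuclear receptor half-sites 1 base apart), TCF/LEF (ATCAAAG), CDX (TTTATGG) or FOXA (TGTTTAC) on either strand. The first 3 were more accessible in EN and the last was less accessible. The 4 genes were picked from the named ones, and only named regions with at least 1 match were eligible. For each gene the region with the most kinds of these letters was taken. They are therefore not typical, since the HNF4 letters stood in 5.05% of all higher and the FOXA letters in 9.15% of all lower regions.
Ptk6, exon, chr2:180931665-180931964: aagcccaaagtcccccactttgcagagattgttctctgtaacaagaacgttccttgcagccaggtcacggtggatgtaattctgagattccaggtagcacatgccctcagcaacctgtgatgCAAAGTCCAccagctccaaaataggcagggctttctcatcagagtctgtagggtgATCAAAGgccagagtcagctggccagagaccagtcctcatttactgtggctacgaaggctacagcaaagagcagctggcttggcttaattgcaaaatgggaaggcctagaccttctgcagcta
Slc10a2, intergenic, chr8:5030683-5030982: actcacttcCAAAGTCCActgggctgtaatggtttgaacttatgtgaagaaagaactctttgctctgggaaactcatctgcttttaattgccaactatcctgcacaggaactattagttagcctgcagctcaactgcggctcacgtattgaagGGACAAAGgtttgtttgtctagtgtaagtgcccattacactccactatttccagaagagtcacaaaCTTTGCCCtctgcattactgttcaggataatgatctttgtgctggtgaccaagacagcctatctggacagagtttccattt
Acsl5, intergenic, chr19:55322472-55322771: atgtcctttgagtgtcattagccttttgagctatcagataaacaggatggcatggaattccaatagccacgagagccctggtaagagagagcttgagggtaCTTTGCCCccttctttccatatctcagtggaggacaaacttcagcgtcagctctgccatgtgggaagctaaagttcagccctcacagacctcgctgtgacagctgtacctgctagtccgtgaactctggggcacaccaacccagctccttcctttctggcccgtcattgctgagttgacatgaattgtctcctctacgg
Tmem132c, intron, chr5:127763115-127763414: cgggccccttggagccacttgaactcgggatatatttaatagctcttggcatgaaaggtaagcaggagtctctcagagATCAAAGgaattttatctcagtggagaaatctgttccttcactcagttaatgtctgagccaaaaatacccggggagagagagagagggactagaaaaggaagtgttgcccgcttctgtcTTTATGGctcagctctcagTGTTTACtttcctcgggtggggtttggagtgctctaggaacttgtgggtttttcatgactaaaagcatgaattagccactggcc

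Library 1 of EN stood apart before any comparison. A set of 1906 narrow regions scored at least 20 in EN1 and at most 3 in EN3 and EN4, and it held 6.82% of EN1's summed score, 1.09% of EN2's and 0.0369% to 0.251% of the score of the other EN and ENR libraries. None of the 1263 such regions that were tested was called by limma, with 77 at an unadjusted p under 0.05. The rule itself forces a wide spread within EN, so calls were unlikely from the start. They made up 1227 of the 2291 uncalled regions with a log2 difference above 1. Summed scores ran from 1993594 to 2109261 in EN and from 1897795 to 1962331 in ENR without overlap (ratio 1.07, exact two-sided permutation p = 0.0286, the smallest that 4 against 4 allows). Without these regions EN1 (1947609) lay below ENR1 (1957398), and the ratio was 1.05 (exact permutation p = 0.0571). Leaving out regions chosen for a high EN1 score lowers EN1's sum by construction. Below, the set is labelled regions high in EN1 alone. The label refers to the limits on EN3 and EN4, and the rule set none on EN2, ENR or CV libraries. The origin of these reads was not tested.

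In all, 11297 of the 51489 regions tested passed an adjusted p of 0.01 in limma's moderated test (21.9%), of which 6142 were more accessible in EN (11.9% of the regions tested) and 5155 less accessible (10.0%). A change of at least 2-fold was seen in 4113 of the higher and 3981 of the lower regions, and one of at least 4-fold in 505 and 886. Among called regions the median log2 difference was 1.22 in the higher and -1.38 in the lower, against 0.03 over all regions tested. The 4 EN and 4 ENR values did not overlap in 5887 of the higher and 5056 of the lower regions, and in 31.1% of all regions tested. Without the regions high in EN1 alone, 12486 regions were called, 6736 of them higher. Scaling each library to the same total kept the count (11267) but turned the split from 54.4% higher to 44.3% higher, or 47.1% when the regions high in EN1 alone were left out as well. Quantile normalization gave 47.3% higher of 11189. The split also rested on EN4, without which 8998 regions were called, 4236 higher and 4762 lower (47.1% higher), while leaving out any other library kept more higher than lower regions.

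**Figure D1:**
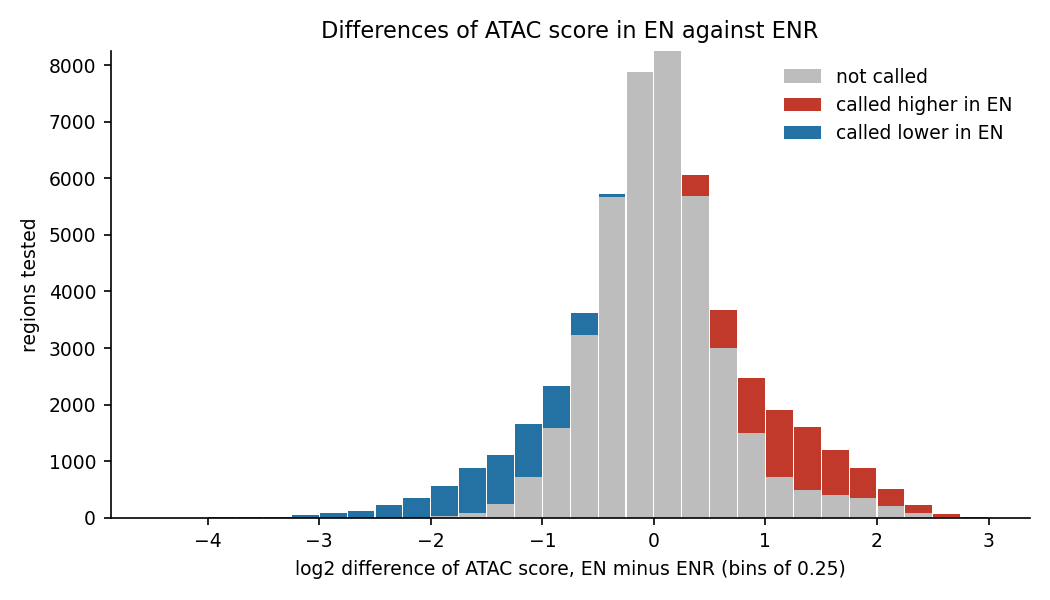
Number of regions tested (y axis) by log2 difference of ATAC score between EN and ENR (x axis, bins of 0.25), with regions called higher, called lower and not called stacked. The tail of falls reached -4.26 and that of rises 2.91, and grey uncalled regions remained on the right beyond a difference of 1.

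Wnt target and stem cell genes lost accessibility in EN. Of the 221 regions tested that lay nearest to the 30 genes of the list, 72 were called lower and 8 higher, which is 32.6% and 3.62% against 9.5% and 11.7% of all 46644 regions within 100 kb of a coding start, and 24 of the 30 genes had at least 1 lower region. The median log2 difference over the list was -0.54. Start sites and farther regions were both called, with 12 of 34 regions within 500 bp of a start lower and none higher, and 60 of 187 farther away lower and 8 higher. Lgr5, the R-Spondin receptor that marks the stem cells, had 5 lower and 1 higher of 8 regions. Its intronic element at chr10:114942400-114943253 scored 206, 186, 206 and 224 in ENR and 47, 26, 42 and 37 in EN. All EN values lay far below all ENR values (log2 difference -2.43, SE 0.16, adjusted p = 4.6e-07 in limma). At the Lgr5 start site the scores were 34, 32, 32 and 22 in ENR and 10, 8, 17 and 22 in EN, so the lowest ENR library met the highest EN library (log2 difference -1.10, adjusted p = 0.00549 in limma).

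Sox9, a transcription factor of crypt progenitor and Paneth cells, lost an element 50871 bp from its start almost completely. That element scored 68, 67, 63 and 73 in ENR and 6, 2, 4 and 6 in EN (log2 difference -3.72, SE 0.25), whereas the start site went from 57.2 ± 7.7 to 16.2 ± 4.1 (SD, n = 4 libraries each; log2 difference -1.78). Axin2, the scaffold of the beta-catenin destruction complex and a classical Wnt target, had 8 lower regions of 11. An intronic Axin2 element scored 33, 31, 27 and 35 in ENR and 2, 1, 2 and 2 in EN, and the start site fell less, from 127, 117, 119 and 134 to 32, 44, 47 and 45. Rnf43 (log2 difference -3.18 in an intron), Cdca7 (-3.11 at 59367 bp) and Olfm4 (-2.60 at 18652 bp) also had lower distal elements with no overlap between the cultures. The start sites of Rnf43 (-0.38) and Cdca7 (-0.18) did not pass the test. Ascl2, the stem cell fate factor, had its lowest p 584 bp from the start, at 59, 56, 47 and 50 in ENR and 14, 24, 13 and 14 in EN.

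Myc, the growth-promoting transcription factor downstream of Wnt, had 14 regions within 100 kb, of which the start site was the only one called; their median log2 difference was 0.18. The start site went from 72, 72, 101 and 93 to 51, 37, 54 and 45 (log2 difference -0.84, adjusted p = 0.00114 in limma). Among the regions named for their p-values, an intergenic region 195262 bp from the Myc start, chr15:61621227-61622142, scored 123, 96, 110 and 121 in ENR and 11, 15, 10 and 14 in EN. A second region, 366309 bp away, scored 83, 72, 70 and 83 in ENR and 10, 10, 10 and 9 in EN. Both were among the 5 lowest p-values of all lower regions, with log2 differences of -3.08 and -2.86. They lay beyond the 100 kb used to give regions to genes and were not part of the list's count. RNA of 18 of the 19 list genes measured was also lower in EN by edgeR, as was that of 38.5% of all genes tested, with 36.9% higher. Lgr5 stood at 1.71 ± 0.73 against 122 ± 5.1 CPM (counts scaled to library size) and Olfm4 at 0.563 ± 0.18 against 1161 ± 60 (SD, n = 4). Tcf7l2 was the gene that was higher.

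**Figure D2:**
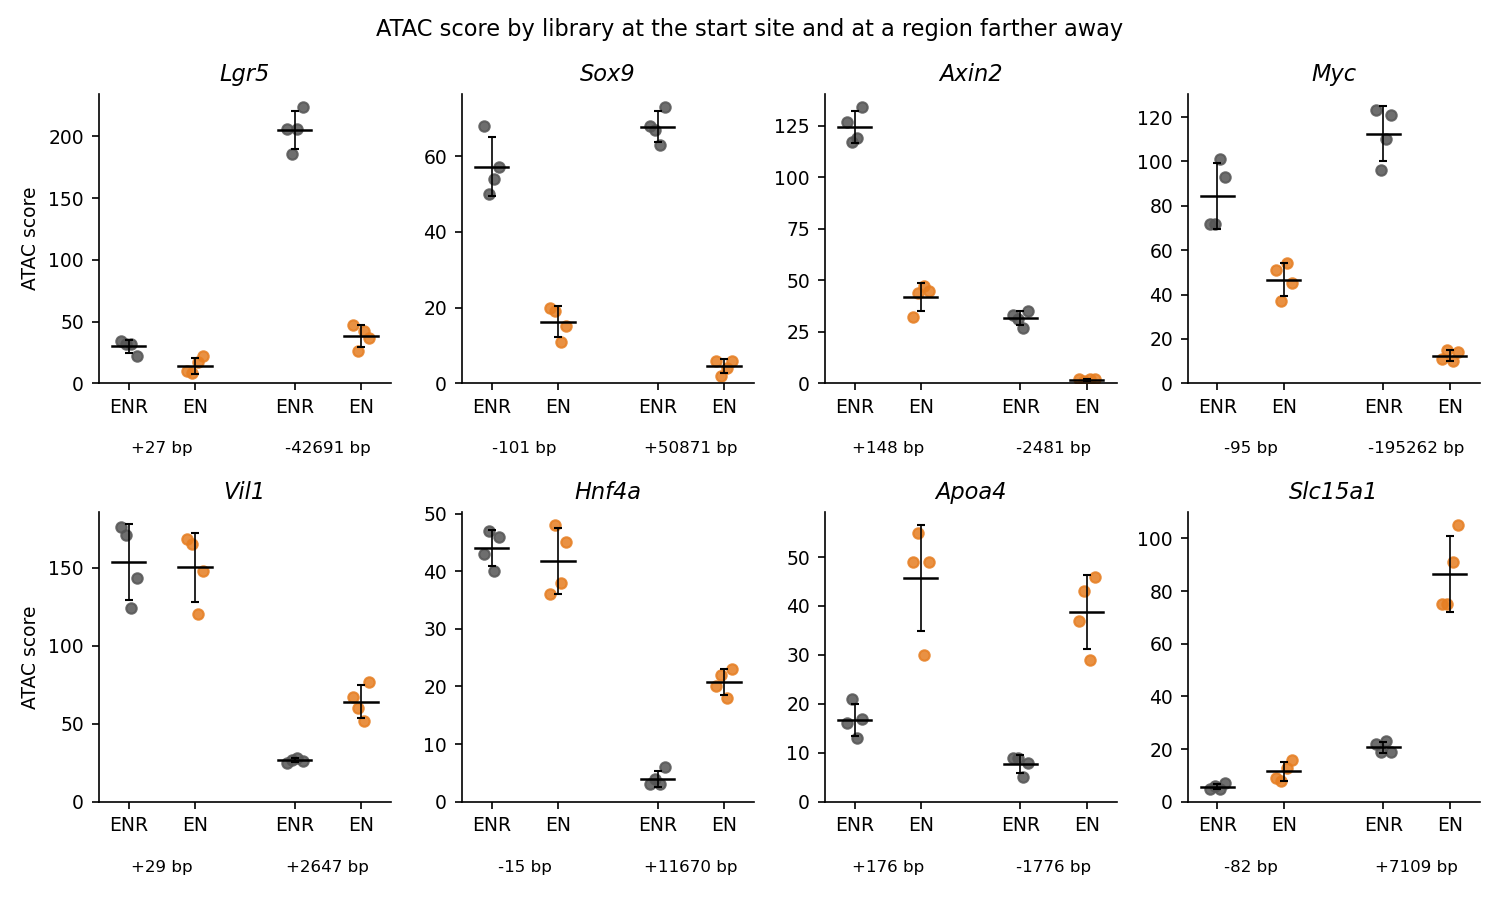
ATAC score (y axis, from 0) of each ENR and EN library at the region nearest to the start site and at a called region farther away (distance from the nearest coding start in bp under the groups), for 8 genes; points are libraries, bars the mean and SD of 4 libraries. Vil1 and Hnf4a overlapped at the start site and separated at the farther region, where every EN value exceeded every ENR value.

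Cell cycle genes fell in RNA, and their regions were called lower more often than higher. Of the 60 regions at genes of the list, 16 were lower and 2 higher (26.7% and 3.33%). Within 500 bp of a start 5 of 17 were lower and 2 higher, where 5.7% and 7.27% of all such regions were, and farther away 11 of 43 were lower and none higher. The lower distal regions included elements of Ccnd2 (log2 difference -2.41), Rrm2 (-1.85), Ccnd1 (-1.65) and Aurkb (-1.06). Ccnd1 and Ccnd2 encode the D cyclins that carry cells into S phase, and Rrm2 a subunit of the enzyme that makes deoxyribonucleotides. Both higher regions were start sites, at the helicase gene Mcm4 and at Ccna2, the S phase cyclin. That of Ccna2 scored 263, 207, 254 and 233 in ENR and 313, 343, 407 and 333 in EN. RNA of Ccna2 went the other way, from 209 ± 8.5 to 5.08 ± 0.90 CPM (log2 difference -5.33). All 18 cell cycle genes measured in RNA were lower in EN, with a median log2 difference of -5.15 in RNA against -0.13 in accessibility at their start sites. Mcm7, a subunit of the replicative helicase, was lower in both (-0.47 at the start site, -4.19 in RNA).

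Genes of the brush border, the microvillus surface that carries digestive enzymes, gained distal accessibility. Of 128 regions, 34 were higher and 2 lower (26.6% and 1.56%), with a median log2 difference of 0.51, and 17 of the 22 genes with a region had at least 1 higher region. Lct, the lactase gene, had an intronic region 4870 bp from its start that scored 11, 10, 7 and 10 in ENR and 71, 52, 45 and 55 in EN (log2 difference 2.43, SE 0.20, adjusted p = 1.5e-06 in limma). Dpp4, a peptidase that also degrades incretins, had 6 higher regions of 12, the strongest of them going from 13, 14, 16 and 14 to 51, 47, 52 and 71. Enpep (log2 difference 1.63 at 46470 bp), another membrane peptidase, and Ptk6 (1.68 in an exon), a tyrosine kinase of differentiating epithelium, had no overlap between the cultures. Vil1, which bundles actin in the microvilli, scored 176, 171, 124 and 143 in ENR and 168, 165, 120 and 148 in EN at its start. These start site values overlapped fully (log2 difference -0.03), while an intronic region 2647 bp away rose from 25, 27, 28 and 26 to 67, 60, 52 and 77 (1.23).

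The 2 lower brush border regions lay at Mep1a and Enpep. Mep1a encodes the alpha subunit of meprin, a secreted and membrane metalloprotease, and its region 1654 bp from the start fell from 36, 32, 42 and 43 to 3, 5, 11 and 10. RNA of Mep1a nevertheless rose from 14.4 ± 1.4 to 72.6 ± 5.2 CPM. Anpep, the aminopeptidase N gene, rose at its start site from 9, 9, 9 and 6 to 32, 11, 17 and 22 (log2 difference 1.14, adjusted p = 0.00563 in limma). No region of Alpi, the intestinal alkaline phosphatase (largest log2 difference 1.06, adjusted p = 0.0654 in limma), or of Krt20, a keratin of differentiated cells (0.45, adjusted p = 0.101), passed the test. In RNA all 23 genes of the list were higher, Alpi by 1.88 and Krt20 by 2.42 on the log2 scale. Only 2 of 21 regions within 500 bp of a start were called higher in this list, against 32 of 107 farther away.

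Genes for fat and vitamin absorption had the highest share of rising regions of the 13 lists. Of 124 regions, 43 were higher and 7 lower (34.7% and 5.65%), with a median log2 difference of 0.58. Within 500 bp of a start 8 of 20 regions were higher and 1 lower, and farther away 35 of 104 were higher and 6 lower. All 4 regions of Apoa4, an apolipoprotein of chylomicrons, were called higher, and the one 1776 bp from the start went from 9, 9, 5 and 8 to 37, 43, 29 and 46 (log2 difference 2.19). Mttp, which loads lipid onto apolipoprotein B, had 5 higher regions of 8. Its intronic element scored 11, 15, 12 and 16 in ENR and 50, 57, 53 and 61 in EN, with H3K27ac, a mark of active elements, at 22.7 ± 0.58 in ENR and 127 ± 27 in EN (SD, n = 3). At the Mttp start site the change was 0.32 on the log2 scale and did not pass the test. The retinol-binding Rbp2, in contrast, rose about equally at its start site (1.66) and in an intron (1.65), each with no overlap.

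Fabp1, a fatty acid carrier of the cytosol, rose 26710 bp from its start from 36, 41, 40 and 24 to 108, 110, 95 and 123. Acsl5, which activates fatty acids with coenzyme A, rose 5238 bp from its start from 8, 13, 9 and 12 to 48, 48, 34 and 39, and its start site scored 5, 3, 6 and 4 against 7, 5, 4 and 6. This Acsl5 element, printed above with a DR1 match, held 97 Hnf4g reads in EN and 1 in ENR. The EN library was deeper, with 1816497 reads in regions against 352600. Creb3l3, a transcription factor of lipid metabolism, rose in an exon by 1.48. In RNA 19 of 22 genes of the list were higher and 2 lower, the lower ones being Scarb1 and Gpam, each of which had 1 lower and no higher region.

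Nutrient carriers rose in 26 and fell in 4 of 86 regions (30.2% and 4.65%; median log2 difference 0.36), with 3 of 15 higher within 500 bp of a start and 23 of 71 farther away. Slc15a1, the peptide transporter PEPT1, had 6 higher and 1 lower of 13 regions. Its intronic region 7109 bp from the start scored 22, 19, 23 and 19 in ENR and 75, 75, 91 and 105 in EN (log2 difference 2.00, SE 0.16), and CV libraries averaged 5 there. Slc28a1, a nucleoside carrier, went from 6, 6, 6 and 5 to 24, 30, 21 and 28. The glucose carriers Slc2a2 and Slc5a1 had 5 of 5 and 4 of 9 higher regions, with log2 differences of 1.43 and 2.00 at their lowest p-values. Slc10a2, the ileal bile acid carrier, rose at its start site from 10, 15, 23 and 14 to 24, 33, 59 and 36 (1.22) and 74400 bp away from 29, 22, 32 and 26 to 62, 56, 64 and 57 (1.12). Slc16a10, an aromatic amino acid carrier, went against the list with 2 lower regions and none higher (-1.63 at 35477 bp), while its RNA rose by 2.74 on the log2 scale.

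The secretory lineages differed from list to list. Goblet cell genes, which make mucus, had 4 higher and 6 lower of 35 regions (11.4% and 17.1%; median 0.05). Agr2, a folding factor for mucins, rose 11940 bp from its start from 12, 17, 13 and 10 to 44, 53, 59 and 59 and held all 4 higher regions of the list. The single region given to Zg16, a lectin of goblet cell granules, fell from 59, 60, 35 and 50 to 3, 12, 6 and 6 (log2 difference -2.84), and Zg16 RNA rose from 94.1 ± 12 to 1819 ± 169 CPM. Clca1, a secreted protease of mucus, fell at its start site from 39, 40, 39 and 44 to 28, 22, 19 and 20 while its RNA rose by 3.38 on the log2 scale. Tff3, the trefoil peptide, fell 1809 bp from its start (-1.15) and gave 0.02 at the start site. In RNA 7 of 8 goblet cell genes were higher. No region of Muc2 was tested.

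Paneth cells sit beside the stem cells and secrete antimicrobial peptides. Their genes had 5 lower and no higher of 13 regions (38.5% lower; median -0.21), 4 of them at Nupr1 and 1 at Itln1. Nupr1, a stress-response cofactor also made in other cell types, fell 4090 bp from its start from 21, 17, 17 and 21 to 7, 7, 6 and 8, and Itln1, an intelectin, fell from 9, 9, 15 and 12 to 3, 4, 1 and 2. Lyz1, the Paneth lysozyme, scored 21, 18, 23 and 15 in ENR and 25, 23, 17 and 20 in EN at its start site, where the cultures overlapped, although its RNA fell from 2435 ± 55 to 922 ± 79 CPM. All 9 Paneth genes measured in RNA were lower in EN. No region was tested at 7 of the 12 genes, Defa6 among them.

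Enteroendocrine cells release gut hormones. Their genes had 3 higher and 2 lower of 37 regions, which is 8.11% and 5.41%, both below the shares over all regions. The granule protein gene Chga (log2 difference 1.48 at 63719 bp) and the secretin gene Sct (1.31) each had a higher region. Isl1, an endocrine transcription factor, was lower at its start site, at 33, 13, 22 and 14 in ENR and 8, 9, 10 and 8 in EN. The 4 regions of Reg4 were not called. All 8 genes measured in RNA were higher, with a median log2 difference of 2.00. Tuft cells, the chemosensory cells, had 3 higher regions of 21 and none lower (14.3% higher), or 5 higher with the replicate number as a block. Dclk1, their kinase marker, rose from 41, 41, 45 and 31 to 84, 79, 93 and 93 (1.13). One uncalled tuft cell region, near Alox5ap, scored 103, 22, 1 and 0 in EN and 2, 1, 0 and 0 in ENR. It belonged to the set labelled high in EN1 alone, whose rule set no limit on EN2.

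Transcription factors of the intestine changed in both directions at shares near those of all regions, with 30 higher and 32 lower of 287 regions (10.5% and 11.1%; median -0.08). Hnf4a, the nuclear receptor that binds enterocyte elements, scored 43, 47, 40 and 46 in ENR and 36, 48, 38 and 45 in EN at its start site. An intronic region 11670 bp away rose from 3, 4, 3 and 6 to 20, 22, 18 and 23 (log2 difference 2.15), and 2 other regions of the gene fell. RNA of its highest transcript was 668 ± 12 in ENR and 666 ± 12 CPM in EN. The paper reports that the canonical Hnf4a transcript did not change, whereas an alternative Hnf4a isoform fell strongly. Its paralogue Hnf4g rose in 2 of 15 regions (1.06 in an intron). The start site of Hnf4g gave 0.57 on the log2 scale (adjusted p = 0.0174 in limma, 0.00608 with the replicate block), and its RNA rose from 349 ± 9.6 to 1332 ± 96 CPM. Nr5a2 rose 73482 bp from its start from 21, 19, 15 and 13 to 47, 81, 50 and 71.

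Cdx2, the homeobox factor that sets intestinal identity, was called lower at all 5 of its regions, with log2 differences of -0.53 at the start site and -2.32 at 14726 bp. That distal region scored 32, 40, 35 and 44 in ENR and 5, 6, 6 and 11 in EN, yet Cdx2 RNA was 203 ± 2.8 in ENR and 201 ± 12 CPM in EN. The vitamin D receptor gene Vdr lost a region 21996 bp from its start, from 44, 44, 55 and 50 to 3, 5, 6 and 10, while its RNA rose by 0.75 on the log2 scale. Bcl6, a repressor, fell at 68317 bp from its start (-1.74) and not at the start site (-0.07). Isx, a homeobox regulator of carotenoid uptake, had 8 higher and no lower of 17 regions.

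Notch and BMP signalling decide between secretory and absorptive fate and oppose Wnt along the villus. Notch pathway genes had 5 higher and 17 lower of 83 regions (6.02% and 20.5%; median -0.31). None of their 10 regions within 500 bp of a start was lower. Lfng, which glycosylates Notch, fell in an intron from 142, 145, 110 and 114 to 32, 22, 11 and 30. The ligand gene Dll4 fell 784 bp from its start (log2 difference -2.08) and gave 0.01 at the start site. Atoh1, the secretory fate factor that Notch represses, fell 34967 bp from its start from 42, 38, 42 and 42 to 13, 11, 12 and 14. The receptor gene Notch2 (-1.97) and the target gene Hes1 (-1.67) lost distal regions, and Rbpj, the DNA-binding partner of Notch, gained one (1.04).

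BMP pathway genes had 8 higher and 16 lower of 81 regions (9.88% and 19.8%; median -0.12). Bmp8b, a ligand gene, was lower at its start site (-1.46) and at 24092 bp (-2.63), and Bmp2, another ligand gene, gained a region 48052 bp from its start, from 25, 24, 33 and 17 to 51, 66, 72 and 80. Among inhibitory Smads, Smad6 fell (-2.24 in an intron) and Smad7 rose (1.49 at 70090 bp). The BMP target Id1 fell from 97, 98, 91 and 82 to 40, 43, 42 and 48 at 3162 bp. Id2 moved both ways, falling by 1.73 on the log2 scale at 3135 bp and rising by 0.52 at its start site.

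Markers of cells that an epithelial culture should lack had 4 higher and 3 lower of 24 regions (16.7% and 12.5%). No region was tested at 5 of the 16 genes, among them Col1a2, Col3a1, Kdr and Cd3e. Regions with low scores were called in both directions, such as those of Csf1r, at 3, 3, 2 and 4 in ENR and 17, 14, 8 and 17 in EN, and of Cdh5, at 21, 22, 19 and 15 in ENR and 6, 4, 11 and 6 in EN. Col1a1 fell at its start site (-0.91) and Vim rose 13625 bp away (1.94). RNA of the 3 measured genes of the list, Vim, Ptprc and Itgam, was higher in EN, with Vim at 7.52 ± 0.60 in ENR and 22.1 ± 3.0 CPM in EN. The part of such cells in the other results was not tested.

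**Figure D3:**
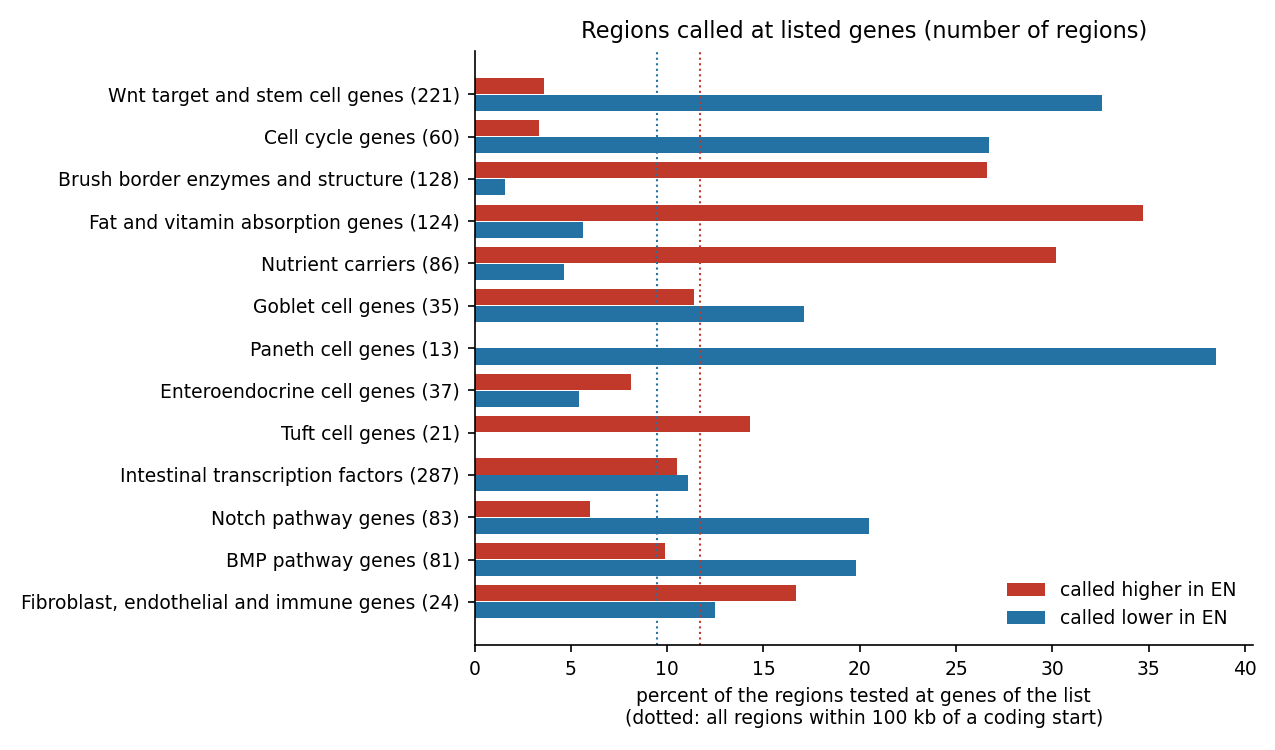
Percent of the regions tested at genes of each list (x axis) that were called higher (red) or lower (blue) in EN; the number of regions stands beside each name and dotted lines give the share over all regions within 100 kb of a coding start, 11.7% higher and 9.5% lower. Fat and vitamin absorption genes reached 34.7% higher and Wnt target and stem cell genes 32.6% lower.

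Outside the lists, the largest rise lay 74420 bp from Tiam2, an exchange factor for Rac, at 3, 3, 8 and 2 in ENR and 33, 28, 35 and 38 in EN (log2 difference 2.91). The lectin-like genes Clec2e and Clec2h, both on chromosome 6, rose by 2.87 and 2.85. The Clec2e region had the lowest p of all regions, going from 33, 34, 34 and 40 to 306, 279, 221 and 257 (adjusted p = 3.2e-08 in limma). Rhobtb1, an atypical GTPase gene, rose at its start site from 12, 17, 13 and 13 to 105, 102, 103 and 104. Regions near Tatdn3 (2.90), in Nmnat3 (2.88), which makes NAD in mitochondria, and in Car10 (2.85) were also among the 8 largest rises. Gm11114 (2.82), Rapgef5 (2.76) and Plekhf1 (1.92) had the other lowest p-values.

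Falls went further than rises. The largest was 21207 bp from Cnn3, a calponin gene, at 62, 55, 52 and 64 in ENR and 1, 2, 2 and 4 in EN (log2 difference -4.26). The intronic Tmem132c region printed above fell from 88, 60, 100 and 88 to 10, 1, 4 and 5 (-4.04). Ccdc46 (-3.97), E030025P04Rik (-3.92), Lphn2 (-3.90), Zfp957 (-3.87), Btbd3 (-3.83) and Cyyr1 (-3.81) followed, all with no overlap between the cultures. Scores this low understate the fold, since 1 was added to each score before the logarithm. Pigr, the receptor that carries immunoglobulin A into the lumen, and Hunk, a kinase gene, fell by 2.78 and 3.05 on the log2 scale and were among the 5 lowest p-values.

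Some loci changed over many regions. Sfi1, a centrosome gene, had 21 higher and no lower of 35 regions, with a median log2 difference of 0.80 and scores up to 2068 on average in ENR. Its regions spanned 72731 bp and had a median width of 217 bp. Their median score in ENR was 96, against 15 over all regions tested. Whether they are separate elements was not tested. The uncharacterised 4930534B04Rik had 8 higher of 11 regions, the kinesin gene Kif16b 8 of 18 and the transcription factor gene Mecom 8 of 28, with 2 lower. On the other side, Zfp36l2, which destabilises mRNA, had 9 lower of 21 regions, Rere 9 of 27, the phosphodiesterase gene Pde4d 9 of 43, with 5 higher, and Vgll4, a partner of Tead factors, 8 of 11.

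Changed regions lay away from start sites. A region within 500 bp of a transcript start was called higher in 7.27% and lower in 5.7% of 12272 cases, against 13.4% and 11.4% of the 39141 regions farther away. The start site regions that were called also changed less, with median log2 differences of 0.58 and -0.98 against 1.30 and -1.44. Start sites made up 23.9% of all regions tested, 14.5% of the higher (95% Wilson interval 13.7 to 15.4) and 13.6% of the lower regions (12.7 to 14.6). With quantile normalisation these shares became 8.99% and 17.1%, so which direction held more start sites depended on the scaling. Introns held 43.4% of the higher regions against 34.8% of all, and intergenic sequence 48.5% of the lower regions against 38.2% of all. Regions low in GC rose more often, with 15.4% and 15.9% called higher in the 2 lowest GC quintiles and 6.1% in the highest.

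Sequence letters differed between rising and falling regions. In the central 300 bases, the HNF4 letters stood in 5.05% of the higher regions (95% Wilson interval 4.53 to 5.63), 1.86% of the lower (1.53 to 2.27) and 2.78% of all regions tested. The DR1 letters stood in 17.2%, 8.26% and 10.2%. Both, and the TCF/LEF and SOX (ACAAAGG) letters, share CAAAG, so their matches can overlap. Regions over 500 bp from a start with the HNF4 letters were called higher in 21.8% of 1337 cases and lower in 6.96%, against 13.1% and 11.5% without them. The CDX letters were more frequent in lower regions, at 9.03% against 5.93% of the higher and 5.5% of all. The FOXA letters, of forkhead factors, stood in 9.15% of the lower, 4.43% of the higher and 5.2% of all regions. RNA of Foxa1, Foxa2 and Foxa3 was lower in EN, by 1.04 to 1.59 on the log2 scale.

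The TCF/LEF letters were about equally frequent in both directions, at 7.04% of the higher and 6.93% of the lower regions, and above the 5.35% of all regions. Among the regions with an adjusted p under 1e-05 (1.24% of the regions tested; 292 higher and 349 lower, 0.567% and 0.678%) they stood in 12.4% of the lower (9.3 to 16.2) and 7.53% of the higher (5.03 to 11.1). The intervals overlapped. The GATA letters (AGATAAG) were also frequent in both directions, at 11.1% and 10.5% against 7.63% of all, as were the AP-1 letters (TGANTCA) at 21.2% and 19.7% against 17.4%. The CTCF letters (AGGGGGCGC), part of the insulator site, were rare in changed regions, at 0.261% of the higher, 0.466% of the lower and 1.33% of the uncalled regions. TEAD letters (ACATTCC) leaned to the lower regions at 6.97% against 4.81%. The remaining 9 motifs ranged from 0.13% of the higher regions (NRF1, GCGCATGCG) to 23.3% of the lower regions (the E-box CAGCTG). All intervals cover counting error only, and a match is a description of letters.

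**Figure D4:**
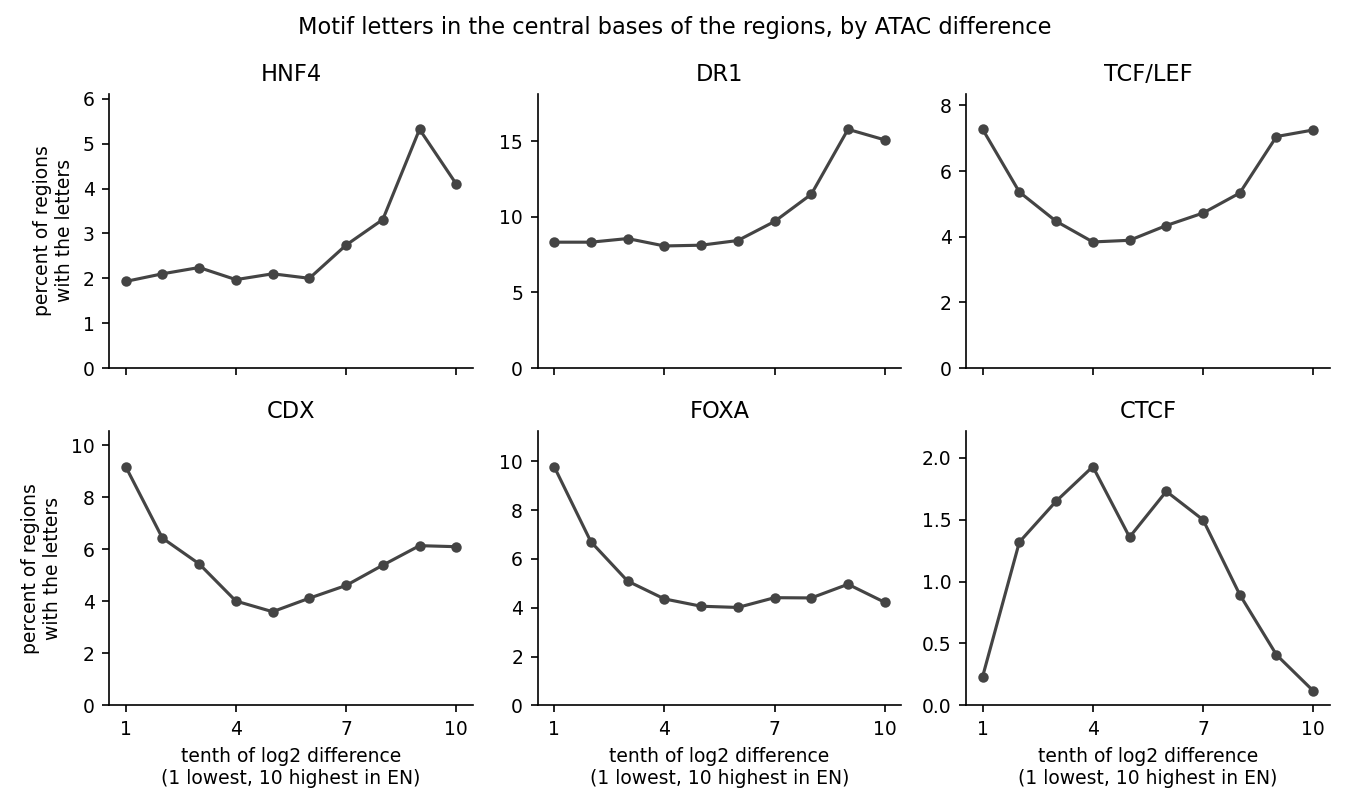
Percent of regions with the letters of 6 motifs in the central 300 bases (y axis, from 0) by decile of the log2 difference of ATAC score (x axis, 1 the most reduced and 10 the most increased in EN). HNF4 and DR1 climbed in the upper deciles, CDX and FOXA were highest in decile 1, TCF/LEF was high at both ends and CTCF was low at both ends.

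Histone marks and Hnf4g binding were read from other libraries at the same regions, which the authors had extended for H3K27me3. H3K27ac, in 3 libraries of each culture, had a median log2 difference of 0.86 in the higher, -0.25 in the lower and 0.30 in all regions tested. H3K4me3, a promoter mark, gave 0.86, 0.19 and 0.40, and H3K27me3, the Polycomb mark, 0.44, 0.70 and 0.53. Relative to all regions, then, H3K27ac and H3K4me3 were above the median at rising regions and below it at falling ones, and H3K27me3 was the reverse. This held over 500 bp from a start, where mean H3K4me3 scores at rising regions were low (2.18 in ENR, 4.44 in EN). Within 500 bp, rising regions gave 0.25 for H3K27ac and 0.29 for H3K4me3, both below the medians of all regions. Falling ones gave -0.35 and -0.07 there, and H3K27me3 gave 0.51 at rising and 0.52 at falling regions. At the Myc region 366309 bp away H3K27ac went from 17.7 ± 7.0 to 5.33 ± 1.5 and H3K27me3 from 1.33 ± 0.58 to 13.7 ± 2.9 (SD, n = 3). At the Axin2 intronic region H3K27me3 went from 1.33 ± 0.58 to 16.7 ± 7.2. The distal Olfm4 region, also less accessible in EN, went the other way, from 13.3 ± 5.5 to 4.33 ± 2.1. No test was run on the marks of single regions.

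Hnf4g binding came from 1 library in each culture, with 1816497 reads in regions in EN and 352600 in ENR, so the difference between the cultures has no replicate check. Rising regions took 10.9% of the reads in EN and 7.39% in ENR, and falling regions 5.94% and 7.76%. Uncalled regions took 73.8% and 65.4%, and all regions tested 90.7% and 80.5%, so the share in tested regions was itself higher in EN. Within the EN library, regions in the lowest decile of Hnf4g reads were called higher in 3.9% and lower in 12.5% of cases, and those in decile 7 in 18% and 8.51%. The top decile, of which 70.1% lay within 500 bp of a start, gave 10.1% and 4.78%. The intronic Slc15a1 region held 55 Hnf4g reads in EN and 3 in ENR, and the Tmem132c region none in either.

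RNA of the gene nearest to called regions was compared with their direction. The deposited RNA list held 9481 transcripts and not the whole transcriptome, so the shares below cover listed genes only. Of 8557 genes tested in RNA by edgeR's quasi-likelihood test, 75.5% passed an adjusted p of 0.01, 36.9% higher and 38.5% lower in EN. Over single transcripts the share was 73.7% of 9003, with 36.1% higher and 37.6% lower. Among genes whose called regions were all higher, 56.2% of the 1615 measured were higher and 22.9% lower in RNA. Among those whose called regions were all lower, 26.6% of 1075 were higher and 51.4% lower, the latter share being 49.7% with DESeq2 and 49.8% without ENR replicate 4. With at least 3 regions in 1 direction the shares reached 73.9% higher and 8.51% lower (188 genes), and 16.5% higher and 70.1% lower (127 genes).

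Start sites followed RNA mainly for large changes. Where RNA rose at least 4-fold, 31.3% of 265 start site regions were called higher, and where it rose 2- to 4-fold, 9.67% of 796. Genes whose RNA fell at least 16-fold had a lower start site region in 22.7% of 132 cases. The share was 15% of 381 for a fall of 4- to 16-fold and 7.96% of 791 for 2- to 4-fold. Regions farther away were called more evenly over the classes. They were higher in 27.2% of cases where RNA rose at least 4-fold and in 19.7% where it rose 2- to 4-fold. For falls of at least 16-fold, 4- to 16-fold and 2- to 4-fold they were lower in 25.6%, 23.1% and 17.8%. Genes without a called 2-fold change had 6.8% higher and 3.78% lower start site regions, and 12.5% higher and 10.2% lower regions farther away.

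**Figure D5:**
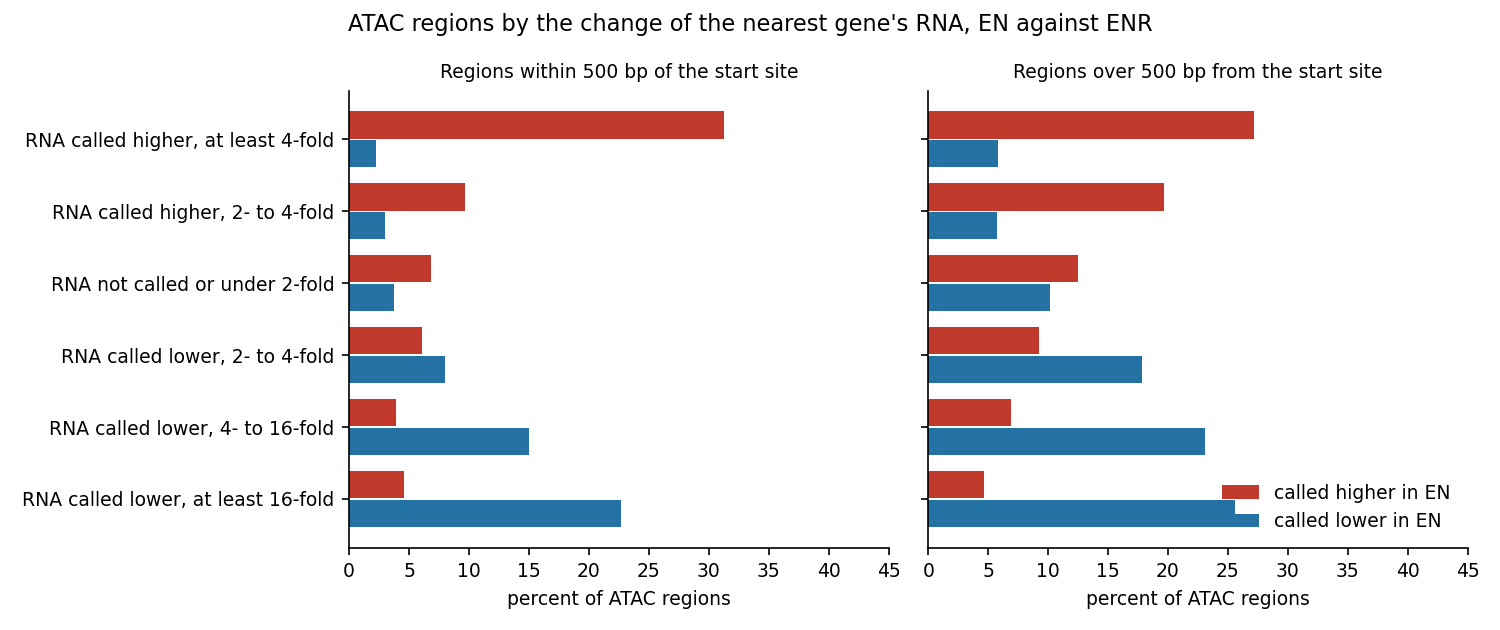
Percent of ATAC regions called higher (red) or lower (blue) in EN (x axis), for regions within 500 bp of the nearest coding start (left) and farther away (right), by the change of that gene's RNA between EN and ENR (rows). Start site regions were called higher in 31.3% of cases where RNA rose at least 4-fold and in 9.67% where it rose 2- to 4-fold.

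CV organoids, the stem cell-enriched culture, are given beside these values with no test. Regions higher in EN had a median score of 29.5 in EN, 11.2 in ENR and 8.75 in CV, and regions lower in EN had 8.75 in EN, 25 in ENR and 20 in CV. CV was thus below ENR at the median of both sets, as it was over all regions tested (13.8 against 15). Single regions differed in this respect. The Btbd3 region averaged 10.5 in CV, the Olfm4 distal region 2.75 and the Pigr region 47, all below the ENR values, while the Ccdc46 region averaged 50.5 and the Lphn2 region 105 in CV.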

How the data were processed

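ATAC-seq, histone ChIPmentation, Hnf4g ChIPmentation and RNA-seq values of EN and ENR organoids were used as deposited. Per the study's methods the authors aligned reads to mm9 with BWA, removed PCR duplicates with Picard, called peaks with MACS2 and counted reads in the union of the peaks. The deposited ATAC and histone values are such counts, normalized between libraries by the authors and rounded to whole numbers, and are treated as a score. For H3K27me3 the authors extended the peaks before counting. The scaling factors and the depth before scaling are not given in the sources used here, so sequencing depth is unknown. The authors' Hnf4g values are raw read counts in the same regions. The deposited RNA values are estimated counts per transcript from kallisto, rounded here to whole numbers. They cover 9481 transcripts besides 92 spike-ins, which were left out, and totals were 5630951 to 8859744 per library. Per the study's methods, the transcripts integrated with its proteome were limited to those quantified as protein. RNA shares given here cover the listed transcripts and not the whole transcriptome. The copy number and TPM columns of that table were not used.

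Scores were tested as log2(score + 1) with limma 3.58.1 in R 4.3.3 (moderated test with a trend on the mean, 8 libraries, mean score of at least 5, Benjamini-Hochberg adjusted p under 0.01). RNA was tested with edgeR 4.0.16 (quasi-likelihood, count of at least 5 in 4 libraries; highest transcript of each gene), with DESeq2 1.42.0 as an alternative. Standard errors come from limma. Simulated 2-fold and 4-fold changes in 200 regions were found in 46.5% and 90% of cases, and 95.5% of 2-fold changes in RNA. Each region went to the nearest protein-coding start within 100 kb in the mm9 annotation (GENCODE vM1), and a gene can have several such starts. Start site means within 500 bp of any transcript start. Motifs were 18 fixed strings searched on both strands.

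Regions named are the 8 largest rises and falls (called, mean of at least 20 in the higher culture, no overlap), the 5 lowest p in each direction, for each list the lowest p region of the 6 genes with the lowest adjusted p and of the markers the study names, the region nearest to their start, and the 5 genes with most called regions in each direction. Scarb1, Gpam, Foxa1, Foxa2, Foxa3, Alox5ap's region high in EN1 alone and the RNA of Tcf7l2, Ptprc and Itgam were named after their values were seen. A few items that this rule selects are not reported here. Genes, lists and motifs were chosen with earlier results of these data known. Replicate numbers come from the labels. Deviations of same-numbered ENR and EN libraries from their culture means correlated at 0.379, 0.148, 0.294 and 0.201 over the regions tested. Without the regions high in EN1 alone they correlated at 0.12, 0.115, 0.165 and 0.018, so a correlation over 0.1 in every pair was reached only with those regions. Differently numbered pairs ran from -0.398 (ENR1 with EN4) to 0.314 (ENR3 with EN4) over the regions tested. There EN2 correlated more with ENR1 (0.247) and EN4 more with ENR3 than with the library of the same number.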

Additional observations from a re-analysis of the deposited data

Results flagged for a closer look

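Dixon's ratio of the gap to the range was computed for each group of 4 libraries at each named region and for their summed scores, and 24 of 338 groups were past its 95% critical value, which is 7.1%; chance flags about 1 in 20. The library apart was EN1 in 4 groups, EN2 in 2, EN3 in 1, EN4 in 4, ENR1 in 2, ENR2 in 2, ENR3 in 4 and ENR4 in 5.

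In many of these groups the other libraries were tied and the gap was 1 unit of score. This holds for Ccdc46 (EN1 at 1), E030025P04Rik (EN3 at 0), the Myc region at 366309 bp (EN4 at 9), the Axin2 intron (EN2 at 1), the Mttp start site (ENR2 at 26), Slc28a1 (ENR4 at 5), the Pou2f3 start site (EN1 at 5) and the Vim start site (EN4 at 9). Larger gaps stood at called regions. ENR3 scored 8 near Tiam2 against 2 to 3 in the others, and 67 near Btbd3 against 54 to 55. ENR4 scored 40 near Clec2e against 33 to 34, 22 at the Lgr5 start site against 32 to 34, and 6 at Anpep against 9. EN2 scored 24 at Ascl2 against 13 to 14. EN4 scored 11 at the distal Cdx2 region against 5 to 6 and 10 at the Id2 region against 4 to 5. ENR2 scored 38 at the distal Atoh1 region against 42.

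At uncalled regions, ENR4 scored 67 at the Cdca7 start site, ENR3 26 at the Mep1a start site and 9 near Sh2d6, and ENR1 71 at the Notch2 and 37 at the Pdgfra start site. EN1 scored 27 at a Reg4 region against 2 to 5 in the other EN libraries and 17 at the Avil start site against 5 to 7.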

How the results depend on the processing

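The count of 11297 changed regions stayed within 1.5 times under 24 of 30 settings. It was 5619 with a mean score of at least 20, 6530 with the replicate block without a trend, 17876 at an adjusted p under 0.05 and 641 at 1e-05. With replicates 1 and 2 only, or replicates 3 and 4 only, limma called 0 regions, with 16292 and 18185 of the 51489 tested at an unadjusted p under 0.05 (22747 with all 8 libraries). Leaving out 1 library gave 7764 to 12595 calls. The share of higher calls was 47.1% without EN4 and 52.4% to 58% without any other library. With the replicate number as a block 13296 regions were called, 7210 of them higher, and 14536 when the regions high in EN1 alone were also left out; besides the tuft cell list and the Hnf4g start site the block changed no call of a named region. Of 109 named regions called, 90 stayed called in every alternative run for named regions. These were a pseudocount of 5, equal totals, quantile normalization, the replicate block, no trend, all 12 ATAC libraries and leaving out 1 library. The other settings were not checked for named regions in this count. The settings that left out regions high in EN1 alone, used replicate pairs, a term for replicates 1 and 2 against 3 and 4 (13544) or equal totals with the block (13637) were chosen after seeing the data.

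Uncalled start site regions that turned sign were Ccnd1 (-0.05 with equal totals), Tff3 (-0.07 and -0.02), Dll4 (-0.08 and -0.04) with equal totals and quantile normalization, and Rbpj (-0.13 with quantile normalization).
Leaving out 1 library in turn took 10 uncalled regions across 0, from -0.18 to 0.24 at Ccnd1, -0.13 to 0.07 at Vil1, -0.17 to 0.19 at Tff3, -0.07 to 0.09 at Dll4, -0.40 to 0.18 at Cck, -0.18 to 0.12 at Vim, -0.38 to 0.02 at Mmp7, -0.15 to 0.00 at Hes1, and -0.37 to 0.01 and -0.57 to 0.16 at the distal and start site regions of Wnt3.

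Calls at list genes within 20 kb of a start were 48 for Wnt target, 2 for enteroendocrine, 26 for transcription factor, 13 for Notch, 15 for BMP and 3 for fibroblast, endothelial and immune genes. At an adjusted p under 0.05 they were 59 for brush border, 9 for enteroendocrine, 6 for tuft and 97 for transcription factor genes, and the direction with more calls turned for goblet cell genes (15 calls, 8 higher) and fibroblast, endothelial and immune genes (10 calls, 6 lower; 5 calls, 3 lower with quantile normalization). Tuft cell genes had 5 calls with the replicate block. Start site shares of higher and lower regions were 22.1% and 22.5% within 2000 bp, 4.79% and 5.75% at 1e-05, and 8.99% and 17.1% with quantile normalization.

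The ratio of a motif's share in higher to that in lower regions at 1e-05 was 7.15 for HNF4, 3.14 for DR1, 0.61 for TCF/LEF, 0.407 for CDX, 0.511 for HNF1 and for TEAD, 0.0993 for SP1, 0.286 for FOXA, 0.358 for NFKB and 0.779 for RUNX, and for KLF it turned to 1.12. In the central 150 bases it was 2.74 for DR1, 1.16 for AP-1, 0.491 for NFKB and 0.808 for the E-box; with quantile normalization 1.24 for GATA, 1.16 for AP-1, 0.514 for SP1 and 1.18 for SOX; and away from start sites 0.513 for SP1. At 1e-05 median log2 H3K27ac was 1.44 and -0.67 and H3K4me3 1.11 and 0.05 in higher and lower regions, and the share of Hnf4g reads in EN over that in ENR was 1.98 and 0.494 (1.35 and 0.658 away from start sites). The ratio of summed scores was 1.05 without the regions high in EN1 alone and 1.06 to 1.08 without 1 library, where the exact permutation test of 4 against 3 cannot go below p = 0.0571. The cause of these shifts was not tested. The median difference of all regions was 0.033, -0.059 with equal totals and -0.03 with quantile normalization. The share of genes with lower regions only that were lower in RNA ranged from 49.7% to 51.8%, and that of genes with higher regions only that were higher from 54.7% to 58.6%. Depth before scaling is unknown, so it sets no limit that can be stated here.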

Other observations

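The 1906 regions high in EN1 alone were looked at after the values of the ATAC libraries were seen. Their median width was 141 bp, 2.85% of those tested lay within 500 bp of a transcript start, and they were found on 20 chromosomes. Over the 100 with the highest score in EN1, each other library's score was taken as a share of that of EN1. The median share was 17.1% in EN2 (range 10.1% to 32.3%) and 21.2% in CV1 (12.6% to 27.2%). It was 3.82% in ENR1 (1.05% to 8.04%), 3.37% in CV2 (1.55% to 5.69%) and 1.48% in ENR2 (0.394% to 4.44%). In the others the median was under 1%. Library 1 was thus the highest of its culture in ENR and CV. In EN the regions had been chosen by their EN1 score, so the order there carries no information.

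The first principal component of log2 scores over all regions tested held 52.6% of the variance and spread the EN libraries from 40.3 (EN4) to 174.9 (EN1), with the ENR libraries from -106.9 to -79.2. Without these regions it held 58.8%, and the EN libraries lay from 88.5 to 94.6 and the ENR libraries from -97.1 to -87.6. The regions left out were chosen because EN1 differed there from EN3 and EN4, so a narrower spread of EN follows in part from the choice. On the second component (13.5%) EN1 still stood apart without them, at 100.5 against -8.1 in EN2, -56.2 in EN3 and -37.2 in EN4.

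Among genes outside the lists with many higher regions, Papss2, which makes the sulfate donor of the cell, had 7 higher of 11 regions and a rise of 3.35 in RNA on the log2 scale, and the inositol carrier gene Slc5a11 had 6 of 7 and 4.01. Bcas1 had 8 lower and 3 higher of 35 regions while its RNA rose by 2.07, and Itga6, the laminin receptor subunit of the crypt base, had 7 lower and 2 higher of 15 regions with a fall of 2.52 in RNA. These 4 genes were chosen after their values were seen.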
